A study of Mus musculus with 3 samples.

Results

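The tumor necrosis factor (TNF) family, the Toll-like receptors and the NF-kB transcription factors were examined in endothelial cells of the adult mouse kidney medulla. The genes were chosen by name: TNF superfamily ligands and receptors, the TRAF adaptors, the Toll-like receptors with the coreceptor Cd14, the adaptors MyD88 and TRIF, the IRAK kinases, the subunits of the IkB kinase and of NF-kB, and the IkB inhibitors with A20. Of the 19938 genes measured by a probe set naming 1 gene, 66 belonged to this set, and each of the 66 had 1 probe set. Nfkb1, Chuk, Irak4, Traf3, Tlr5, Il1r1 and Il1rl1 were not analysed here, nor were Tnfsf12 and Tnfsf13, whose probe set names several genes.

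The cells were sorted by green fluorescence from dissected, collagenase-treated medulla of adult male FVB/N mice carrying Tg(TIE2GFP)287Sato, in which the Tie2 promoter drives GFP. Tie2 is also known from some blood cells, so the sort by itself does not exclude them. There was 1 group of 3 arrays, each of RNA from a pool of 2 kidneys, with no treatment and no second group. No fold change is therefore given. Each level was set instead against a limit, and no member's level was compared with that of another member, since brightness also depends on the probes. A call against a limit depends on the probes too, and the background limit used below comes from probe sets of other genes.

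TNF family ligands are mostly membrane proteins of immune cells that can be shed, and their receptors recruit TRAF adaptors or, through a death domain, the caspase machinery. Toll-like receptors recognise microbial products and signal through MyD88 or TRIF and the IRAK kinases. Both routes meet at the IkB kinase, which marks the IkB inhibitors for breakdown and so frees NF-kB to enter the nucleus. In endothelium this pathway is known for switching on adhesion molecules and chemokines that recruit leukocytes.

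Most of these genes lay above the low-level filter of the study, a raw level of 100 units (log2 6.64). By limma with Benjamini-Hochberg adjustment over all genes, 59 of the 66 were called above it, against 83% of all genes, and 5 below it, against 12% of all genes. A stricter background limit was taken from probe sets for olfactory, vomeronasal and bitter taste receptors, genes known mainly from sensory cells: the 95th percentile of their mean levels was log2 7.94 (246 units). Against this limit 37 of the 66 were called above, 20 below, and 9 could not be told from it. Over all genes 49.8% were called above the background limit and 37.8% below it. Counted without a test, 60 members reached 100 units in all 3 arrays, against 85.4% of all genes, and 41 reached the background limit in all 3, against 55% of all genes. The median level was log2 8.27 over the 66 genes and 8.15 over all genes. As a set the 66 genes thus stood near all genes, and the members differed among themselves.

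The calls divided by role. Above the background limit were 14 of 21 receptors, 4 of 6 TRAF adaptors, all 5 Toll adaptors and kinases, both IkB kinase subunits, 3 of 4 NF-kB subunits and 3 of 5 in the group of IkB proteins with A20, but only 2 of 12 ligands and 4 of 11 in the group of Toll-like receptors with Cd14. A gene below the limit is not shown to be silent. With the limit at the 99th percentile of the sensory receptor probe sets (log2 8.73), 19 members were called above it, as were 5832 of all 19938 genes. The 19 were the ligands Tnfsf10 and Tnfsf11, 7 receptors (Ltbr, Tnfrsf1a, Tnfrsf11a, Tnfrsf12a, Tnfrsf22, Tnfrsf23 and Tnfrsf26), Traf2, Traf7, Tlr2, Tlr3, Tlr4, Irak3, Myd88, Ikbkb, Rela and Nfkbia.

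**Figure D1:**
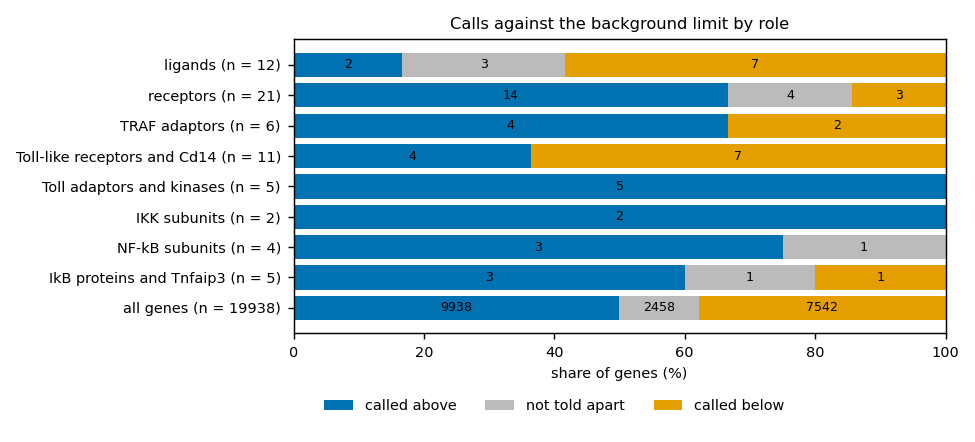
Share of genes (x axis, percent) called above, not told from and called below the background limit of log2 7.94 by limma, for each role and for all genes (rows), with the number of genes in each segment. Ligands have 2 of 12 genes above the limit, against 14 of 21 for receptors and 9938 of 19938 for all genes.

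The labelled cell type was checked against marker genes. All 7 endothelial markers, among them Pecam1 (log2 12.53, 12.38 and 12.40 in arrays 1, 2 and 3) and Cdh5 (12.92, 12.65 and 12.57), were called above the background limit. None of 12 myeloid markers was, with 8 called below it, including the pan-leukocyte gene Ptprc at 6.68 in every array. Of 9 lymphocyte markers 8 were called below it and Cd3e, at 8.52, above it. Markers of other cells were also above it: 2 of 4 of the thick ascending limb, with Umod at 11.61, 10.40 and 9.49, 3 of 4 of the collecting duct, with Aqp2 at 9.67, 9.67 and 9.27, all 3 of antigen presenting cells, 1 of 5 of the proximal tubule and 1 of 4 of fibroblasts, against 0 of 4 of pericytes and smooth muscle. The part of such cells in the levels given here was not tested. Array medians lay within 0.03 log2 units of each other, and the arrays correlated with each other at 0.964 to 0.966 over probe sets. Many genes had the same value in every array: 25 of the 66 members (37.9%) and 46.3% of all genes. Their SD is 0, so their error is likely understated, and the prior variance of limma was taken from the genes with 3 different values. Where nothing more is said, SD is over 3 arrays. The p-values combine the spread between these arrays with that prior, and cover no spread beyond these arrays. For genes with the same value in every array they rest on the prior and the distance from the limit, and not on any spread.

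Among the ligands, TRAIL stood above the background limit, and TNF did not. Tnfsf10, which encodes TRAIL, a ligand that can trigger apoptosis, had log2 levels of 11.51, 11.00 and 11.13 in arrays 1, 2 and 3 (11.22 ± 0.26, SD, n = 3, adjusted p = 6.41e-05 by limma against the background limit). It was highest in array 1, and every array lay over 3 log2 units above the limit. Tnfsf11, encoding RANKL, the ligand that drives osteoclast formation, was at 9.15, 9.17 and 9.15 (adjusted p = 0.000121 by limma). These were the only ligands called above.

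Tnf itself was at 7.30, 7.30 and 7.35, below the background limit (adjusted p = 0.000916 by limma) and above 100 units. The lymphotoxin gene Lta stood at 7.86 in every array and Ltb at 8.08, and neither could be told from the limit. Tnfsf15, which encodes the endothelial cytokine TL1A, was at 7.78, 7.88 and 7.88 and could not be told from it either (adjusted p = 0.227 by limma). The remaining 6 ligands were called below it, and all were nearly equal between arrays. Tnfsf13b, the B cell survival factor BAFF, was at 7.19 in every array and Tnfsf18, the ligand of GITR, at 7.11. Tnfsf14, encoding LIGHT, was at 7.10, 7.10 and 7.13. Of the costimulatory ligands, Tnfsf4 (OX40 ligand) was at 6.76 in every array and could not be told from 100 units, while Tnfsf8 (CD30 ligand, 6.17, 6.17 and 6.16) and Tnfsf9 (4-1BB ligand, 6.41 in every array) were called below 100 units as well.

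All 21 receptors were called above 100 units. The main TNF receptor Tnfrsf1a, which carries a death domain, had levels of 10.84, 10.54 and 10.49 (10.63 ± 0.19, SD, n = 3, adjusted p = 5.89e-05 by limma against the background limit). The other TNF receptor, Tnfrsf1b, which lacks one, was at 8.02, 8.11 and 8.11 and could not be told from the limit (adjusted p = 0.1075 by limma). The lymphotoxin beta receptor Ltbr, which feeds the noncanonical NF-kB route, was at 9.19, 9.06 and 8.98 and was called above. In every array Tnfrsf1a and Ltbr thus lay above the limit by more than the arrays differed.

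The receptors known to bind TRAIL lay on both sides of the limit. Tnfrsf10b, the death receptor for TRAIL in the mouse, had 9.60, 8.42 and 8.71 in arrays 1, 2 and 3 (8.91 ± 0.62, adjusted p = 0.0252 by limma), the largest SD among the 66 genes. Array 1 was 1.03 log2 units above the mean of the others, or 2.05-fold. Its call was lost without array 3 (adjusted p = 0.0799 by limma) and with the prior variance taken from all genes (adjusted p = 0.0919 by limma).

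Tnfrsf22 and Tnfrsf23, which encode decoy receptors for TRAIL without a death domain, were at 10.56, 10.62 and 10.43 and at 10.09, 10.09 and 10.08. Their neighbour Tnfrsf26 was at 10.35, 9.96 and 9.77, highest in array 1. All were called above, with adjusted p of 3.56e-05, 3.55e-05 and 0.000262 for Tnfrsf22, Tnfrsf23 and Tnfrsf26 (limma). The 3 genes are close relatives on chromosome 7, and whether their probes distinguish them was not tested, so that the value of each is uncertain. The soluble decoy receptor for RANKL and TRAIL, Tnfrsf11b (osteoprotegerin), was at 7.75 in every array, just below the limit (adjusted p = 0.0402 by limma). That call was lost without array 3 (adjusted p = 0.0509 by limma), though the level of Tnfrsf11b did not change, so the loss reflects the fit with fewer arrays. The RANKL receptor Tnfrsf11a was at 9.30, 9.32 and 9.59, highest in array 3, and was called above.

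Of the other receptors, Tnfrsf12a, encoding the TWEAK receptor Fn14, was at 8.92, 8.93 and 8.93 and was called above (adjusted p = 0.000215 by limma). The death-domain receptors Tnfrsf21 (DR6) and Tnfrsf25 (DR3, the receptor of TL1A) were at 7.82 in every array and could not be told from the limit, like Tnfrsf19 (TROY) at 8.03. A group of 6 receptors known mainly from lymphocytes, picked out once the values were known, lay a little above the limit: Tnfrsf4 (OX40), Tnfrsf9 (4-1BB), Tnfrsf13b (TACI), Tnfrsf13c (BAFF receptor), Tnfrsf14 (HVEM) and Tnfrsf18 (GITR) had means of 8.12 to 8.34. At the 99th percentile of the sensory receptor probe sets all 6 were called below it, as were 12033 of all 19938 genes. The B cell markers Cd79a, Ms4a1 and Cd79b had means of 5.96, 6.08 and 7.63, all called below the limit. Of the T cell markers, Cd3e was called above it at 8.52 in every array (adjusted p = 0.00112 by limma), and Cd3g (6.59), Cd4 (7.57) and Cd8a (7.52) below it. The part of lymphocytes in these levels was not tested. Tnfrsf17, encoding the plasma cell receptor BCMA, at 7.63, and Tnfrsf8, encoding CD30, at 7.44 in every array, were called below. The call for Tnfrsf13b, at 8.12 in every array (adjusted p = 0.0476 by limma), was lost when any 1 array was left out. Its distance from the limit stayed at 0.18 each time, so the loss reflects fewer arrays and a new prior, not a particular array. The call for Tnfrsf9 was lost without array 3.

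**Figure D2:**
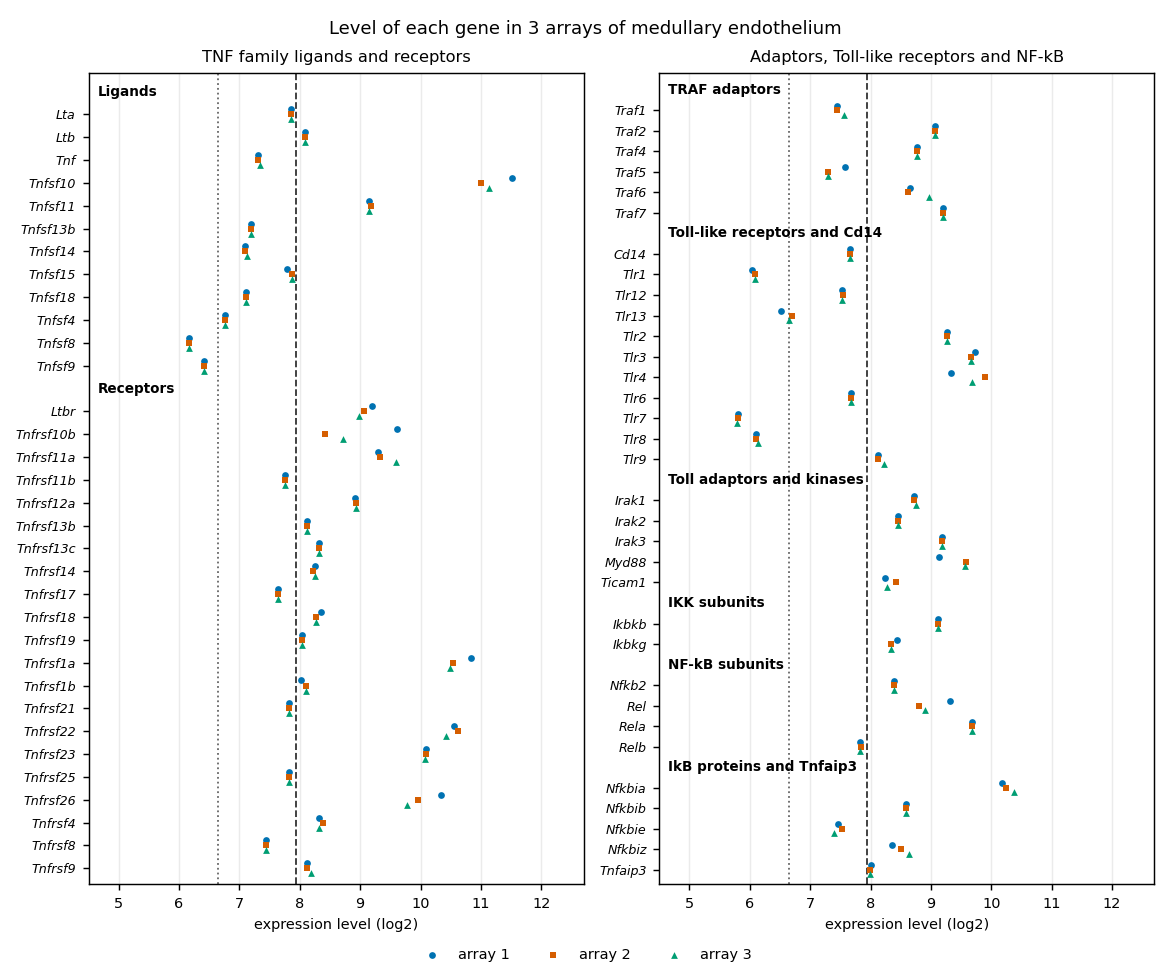
Log2 expression level (x axis) of the 66 genes (rows), grouped by role, with 1 point for each of 3 arrays. The dotted line marks 100 units (6.64) and the dashed line the background limit (7.94). Tnfsf10 stands apart from the limit among the ligands, and Tnfrsf1a, Tnfrsf22, Tnfrsf23 and Tnfrsf26 among the receptors.

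Of the TRAF adaptors, which link TNF and Toll-like receptors to ubiquitin signaling, 4 were above the background limit. Traf2, the adaptor of TNF receptors, was at 9.07 in every array, and Traf6, the adaptor of the Toll and interleukin-1 route, at 8.65, 8.62 and 8.96, highest in array 3. Traf4 was at 8.77 in every array and Traf7 at 9.20, 9.19 and 9.20. The 2 adaptors below the limit were Traf1, itself a known target of NF-kB, at 7.45, 7.45 and 7.55 (adjusted p = 0.00316 by limma), and Traf5 at 7.57, 7.30 and 7.30 (adjusted p = 0.00473 by limma). Traf5 was the same in arrays 2 and 3 and higher in array 1.

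The Toll-like receptors divided into 4 genes above the background limit and 6 below it, with Cd14 also below. Tlr4, the receptor for lipopolysaccharide, was at 9.34, 9.90 and 9.67 in arrays 1, 2 and 3 (9.64 ± 0.28, SD, n = 3, adjusted p = 0.000449 by limma). Tlr3, which senses double-stranded RNA in endosomes, was at 9.74, 9.66 and 9.66, and Tlr2, a receptor for bacterial lipoproteins, at 9.27 in every array. For these 3 receptors every array was over 1 log2 unit above the limit.

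Tlr9, the sensor of unmethylated CpG DNA, was close to the limit at 8.12, 8.12 and 8.23, and its call (adjusted p = 0.0367 by limma) was lost without array 3 (adjusted p = 0.059 by limma). The partners of Tlr2 lay below: Tlr1 at 6.03, 6.08 and 6.08, under 100 units, and Tlr6 at 7.68 in every array. Tlr7 (5.81, 5.81 and 5.79) and Tlr8 (6.10, 6.10 and 6.13), sensors of single-stranded RNA, were also called below 100 units. Tlr12, which in the mouse recognises the parasite protein profilin, was at 7.52, 7.54 and 7.52, and Tlr13, a sensor of bacterial ribosomal RNA, at 6.52, 6.69 and 6.65, could not be told from 100 units. The receptors called below 100 units, Tlr1, Tlr7 and Tlr8, are known mainly from leukocytes.

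Cd14, which hands lipopolysaccharide to TLR4, was at 7.66 in every array and was called below the background limit (adjusted p = 0.012 by limma). Ly96, encoding MD-2, the protein that binds lipopolysaccharide on TLR4, varied widely, with 7.97, 9.71 and 9.07 in arrays 1, 2 and 3 (8.92 ± 0.88), and could not be told from the limit (adjusted p = 0.066 by limma). Every array was above it, with array 1 the lowest, as for Tlr4. The lipopolysaccharide-binding protein Lbp was at 9.76 in every array and was called above. Unc93b1, the chaperone that carries endosomal Toll-like receptors, was at 8.21, 8.41 and 8.43 and was called above.

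All 5 Toll adaptors and kinases were called above the background limit. Myd88, the adaptor shared by most Toll-like receptors and the interleukin-1 receptor, was at 9.13, 9.58 and 9.57, lowest in array 1 (9.43 ± 0.26, adjusted p = 0.000543 by limma). Ticam1, encoding TRIF, the adaptor of TLR3 and of the endosomal branch of TLR4, was at 8.24, 8.42 and 8.28. Of the kinases, Irak1 was at 8.72, 8.72 and 8.76, Irak2 at 8.45 in every array and Irak3, an inhibitor of the pathway known first from macrophages, at 9.18 in every array. Differences between arrays exceeded 0.25 log2 units only for Myd88.

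Of the other genes of the Toll and interleukin-1 branch, 7 of 20 (35%) were above and 10 (50%) below the limit, against 49.8% and 37.8% of all genes. Those below included the inflammatory cytokines Il1a (5.87) and Il1b (7.42) and the receptors Il1r2 (6.44) and Il18r1 (6.48). Il33, a nuclear alarmin of endothelium, was at 9.50, 8.74 and 9.50, lowest in array 2, and was called above, as were the inhibitors Sigirr (9.82, 9.54 and 9.55) and Tollip (9.63, 9.52 and 9.59).

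Downstream, the IkB kinase subunits and most NF-kB subunits were above the background limit. Ikbkb, the catalytic subunit of the canonical route, was at 9.12 in every array, and Ikbkg, the regulatory subunit NEMO, at 8.44, 8.33 and 8.33. Rela, which encodes the transactivating subunit p65, was at 9.67 in every array (adjusted p = 5.15e-05 by limma). Rel, encoding c-Rel, was at 9.32, 8.80 and 8.90 (9.01 ± 0.28, adjusted p = 0.00193 by limma), highest in array 1, and Nfkb2, encoding p100, at 8.38 in every array. Relb, the partner of p52 in the noncanonical route, was at 7.83, 7.85 and 7.83 and could not be told from the limit (adjusted p = 0.1685 by limma).

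Of the inhibitors, Nfkbia stood over 2 log2 units above the limit in every array. It encodes IkB alpha, which NF-kB itself is known to induce, and was at 10.18, 10.24 and 10.38 (10.27 ± 0.11, SD, n = 3, adjusted p = 4.42e-05 by limma). Nfkbib, encoding IkB beta, was at 8.59 in every array, and Nfkbiz, encoding the nuclear protein IkB zeta, at 8.35, 8.51 and 8.63. Nfkbie, encoding IkB epsilon, was below the limit at 7.46, 7.53 and 7.40 (adjusted p = 0.00289 by limma). Tnfaip3, which encodes A20, an enzyme that edits ubiquitin to shut the pathway down, was at 8.01, 7.99 and 7.99 and could not be told from the limit (adjusted p = 0.453 by limma). Both Nfkbia and Tnfaip3 are known to be induced by NF-kB, and Nfkbia was called above the limit. Tnfaip3 was over it by 0.05 log2 units, and its call depended on the setting. It was called above with the prior variance from all genes (adjusted p = 0.0118 by limma) or the limit at the 90th percentile (adjusted p = 0.0042 by limma). With the limit at the 99th percentile it was called below (adjusted p = 0.000477 by limma). It could not be told from the limit when any 1 array was left out.

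Several genes of this pathway are known to be controlled by NF-kB, and their promoters were searched for the consensus NF-kB (kB) motif on both strands. RefSeq promoter windows (assembly GRCm38.p6, 250 bases before to 50 after a gene's start) were at hand for 54 of the 66 genes. A match was found for 12 of the 54 (22.2%), against 9.55% of all 27025 genes with a window. By windows, 15 of 68 (22.1%) held a match, against 8.46% of 32851. A match is a description of letters and not a bound site. Stretches upstream of the start are given here to set the motif beside the levels, for the NF-kB and IkB genes and A20 with a match there and for the Toll-like receptors Tlr2 and Tlr3, 5′ to 3′ on the gene's strand. Capitals mark the matches, and those that overlap run together.
Rel, minus strand, chr11:23771026-23771086: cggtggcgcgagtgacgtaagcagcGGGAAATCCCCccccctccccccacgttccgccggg
Nfkb2, plus strand, chr19:46304673-46304736: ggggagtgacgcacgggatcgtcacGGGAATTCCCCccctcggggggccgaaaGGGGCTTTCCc
Nfkbia, minus strand, chr12:55492648-55492701: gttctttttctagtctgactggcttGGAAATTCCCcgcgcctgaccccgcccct
Nfkbie, plus strand, chr17:45555569-45555628: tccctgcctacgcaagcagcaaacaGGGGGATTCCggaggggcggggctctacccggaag
Tnfaip3, minus strand, chr10:19015411-19015447: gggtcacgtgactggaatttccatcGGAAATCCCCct
Tlr2, minus strand, chr3:83841746-83841806: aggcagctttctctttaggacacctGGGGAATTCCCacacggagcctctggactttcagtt
Tlr3, minus strand, chr8:45410557-45410616: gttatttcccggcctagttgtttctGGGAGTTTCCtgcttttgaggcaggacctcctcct

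The matches lay at different distances from the start. The capitals of Nfkbia end 20 bases and those of Tnfaip3 3 bases before the start, those of Rel 82 bases, and those of Nfkbie, Tlr2 and Tlr3 97, 163 and 202 bases before it. Nfkb2 had 3 matches in this stretch, the first pair overlapping. Tnfaip3, Tlr2 and Nfkb2 held further matches outside the stretches printed. Genes with a match stood on both sides of the background limit, with Rel, Nfkb2, Nfkbia, Tlr2 and Tlr3 above it, Nfkbie below it and Tnfaip3 not told from it. The other members with a match were Ltb, Irak1, Tnfrsf8, Tnfrsf9 and Tnfrsf25.

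The other genes of the pathway were read from lists of the same kind. Together 40 of 65 measured genes (61.5%) were above the background limit, 17 (26.2%) below it and 8 not told from it, against 49.8% above and 37.8% below over all genes. Among TNF family members under other names the Fas receptor gene Fas was at 11.58, 11.63 and 11.14, Cd40 at 9.84, 9.84 and 9.58, and the nerve growth factor receptor Ngfr at 8.52, 8.52 and 8.56, and these were the only 3 of 11 called above. The ligands Fasl (6.90), Cd40lg (6.04), Cd70 (7.37) and Eda (7.18), each at the same level in every array, were called below, as was the receptor Eda2r (7.01). The receptors Cd27, Edar and Relt could not be told from the limit.

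Signaling genes downstream of the receptors lay above the limit in nearly all cases. Ripk1 and Ripk2, also listed for death domain signaling, were not analysed here. All 9 measured genes of death domain signaling were called above, against 49.8% of all genes. They included Fadd, the adaptor that recruits the apical caspase, at 9.90 in every array, Casp8, that caspase, at 10.94, 10.48 and 10.94, and Cflar, encoding its inhibitor c-FLIP, at 11.79, 12.44 and 12.34 (12.19 ± 0.35, SD, n = 3). Genes on both sides of the death pathway were therefore above the limit, with the inhibitors Birc2 (9.68 in every array) and Xiap (10.83, 10.83 and 10.61) among them.

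Of 12 genes of ubiquitin control 11 were above the limit, such as the deubiquitinase Cyld (10.24, 9.74 and 10.41), lowest in array 2, and the linear ubiquitin ligase genes Rnf31, Rbck1 and Sharpin, with means of 9.57, 9.42 and 9.86. Only Tnip3, at 5.94, was below it. Of 10 upstream kinase genes 8 were above, among them Map3k7, encoding TAK1, at 10.33, 10.02 and 10.11 and Tbk1 at 10.35 in every array, while Map3k14, encoding the noncanonical kinase NIK, could not be told from the limit (8.05, 8.07 and 8.05), nor could Ikbke at 7.78.

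Genes known as targets of NF-kB in endothelium were mixed. Of 25 measured targets 13 were above the background limit, 8 below it and 4 not told from it, so that 52% were above, against 49.8% of all genes. The adhesion molecule genes Vcam1 (10.21, 11.17 and 10.82), Icam1 (9.36 in every array) and Sele (8.14, 8.56 and 8.23) were above, as were the colony-stimulating factor gene Csf1 (9.19, 9.09 and 9.06), the NF-kB-responsive genes Tnfaip2 (10.84, 10.30 and 10.84) and Ier3 (9.19 in every array) and the superoxide dismutase gene Sod2 (9.25, 9.32 and 8.83). Also above were the chemokine genes Cxcl1 (8.57, 8.65 and 8.80), Ccl5 (8.24, 8.28 and 8.24) and Cx3cl1 (8.99, 8.76 and 8.76), the inducible nitric oxide synthase gene Nos2 (8.48, 8.43 and 8.42), Irf1 and Bcl2l1. Inflammatory genes thus stood on both sides of the limit. Below it were Il6 (4.60), Csf2 (6.12), Ptgs2 (6.89) and Cxcl2 (6.42), and Mmp9, F3, Csf3 and Icosl. Cxcl10, a chemokine induced mainly by interferon, was at 8.08, 10.12 and 8.37, high in array 2 only, and could not be told from the limit (adjusted p = 0.129 by limma). Ccl2, Ccl20 and Tnfaip8 could not be told from it either. With no other compartment or treatment set beside these arrays, the values are levels and not induction.

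**Figure D3:**
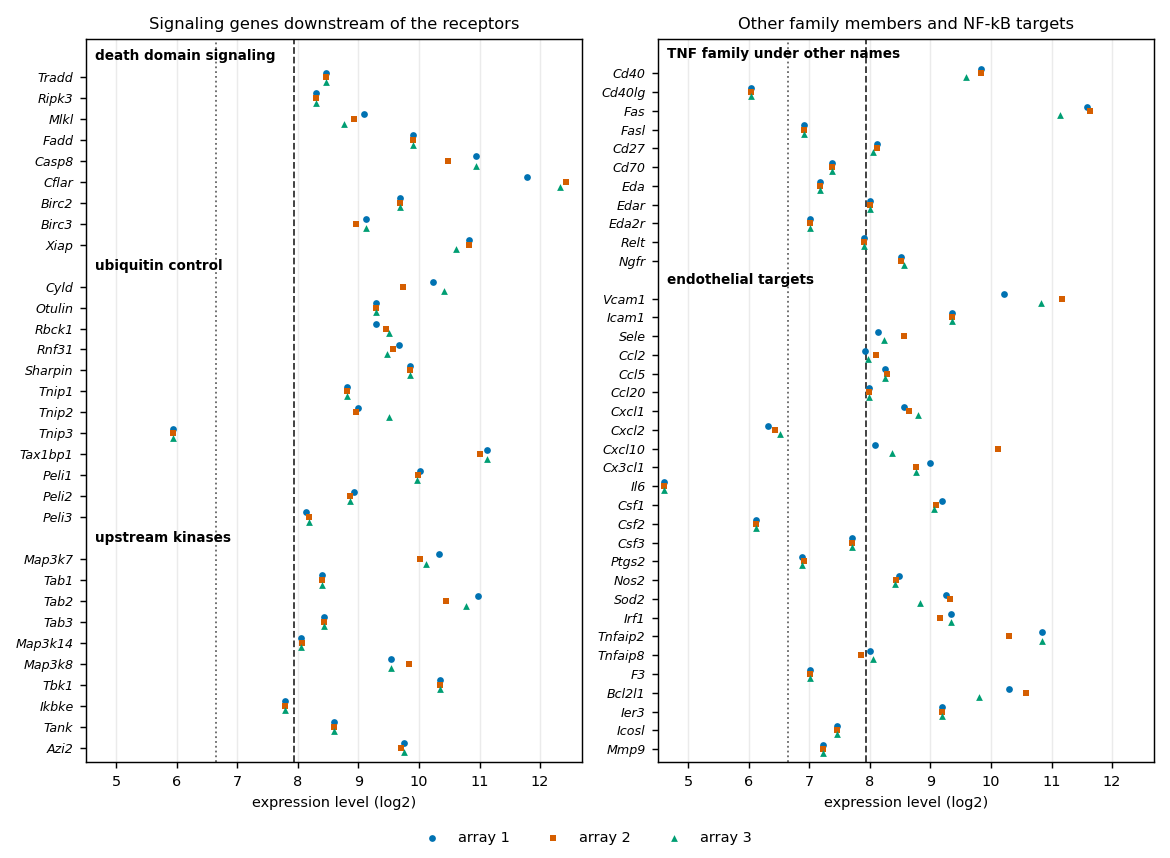
Log2 expression level (x axis) of further pathway genes (rows) in 3 arrays, with death domain, ubiquitin and kinase genes on the left and TNF family members under other names and NF-kB targets on the right. Dotted and dashed lines mark 100 units (6.64) and the background limit (7.94). All 9 death domain genes lie to the right of the dashed line, and Il6, Csf2 and Cxcl2 lie to the left of the dotted one.

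Between the arrays most of the 66 genes differed little. The range over the arrays exceeded 0.25 log2 units for 11 members (16.7%), against 17.2% of all genes, and the median SD was 0.012 for the members and 0.0079 for all genes. Of those 11, array 1 was alone the highest in 6 and the lowest in 4, while among the 3421 genes with such a range it was alone the highest in 38.4% and the lowest in 23.1%. The 6 were Tnfrsf10b, Tnfrsf26, Rel, Tnfsf10, Tnfrsf1a and Traf5. Tlr4, Myd88, Nfkbiz and Tnfrsf11a were lowest in array 1, as was Ly96, the partner of Tlr4. Without array 1 the range exceeded 0.25 for 3 members.

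Markers of other cell types also differed between the arrays. The thick ascending limb genes Umod (11.61, 10.40 and 9.49) and Slc12a1 (9.68, 8.07 and 7.81) were highest in array 1, as were the 6 members named above, while the other 2 markers of that list, Kcnj1 at 8.84 in every array and Cldn16 at 7.07, 7.34 and 7.34, were not. The endothelial markers Pecam1, Cdh5, Tek, Kdr and Tie1, 5 of the 7, were also highest in array 1, with a summed level of the 7 of 41847, 37388 and 38232 units. The summed level of the 4 thick ascending limb markers was 4534, 2239 and 1566 units in arrays 1, 2 and 3. The antigen presentation genes Cd74 (9.27, 10.93 and 9.53), H2-Aa (10.49, 11.45 and 10.75) and H2-Ab1 (9.69, 10.66 and 9.38) were highest in array 2, as were Tlr4, Ly96, Vcam1 and Cxcl10. Being highest there was common. Of the 3421 genes with a range over 0.25 log2 units 30.4% were alone the highest in array 2, and of the 11 such members 2 were. Tnfaip2 and Il33 were lowest in array 2. Of the 12 myeloid markers, 7 had the same value in every array, and Lyz2, the one with the largest SD, was at 7.15, 7.63 and 7.28, highest in array 2 like the antigen presentation genes. The summed level of the 12 was 1939, 2005 and 1960 units. The part of these cells in the differences between arrays was not tested.

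**Figure D4:**
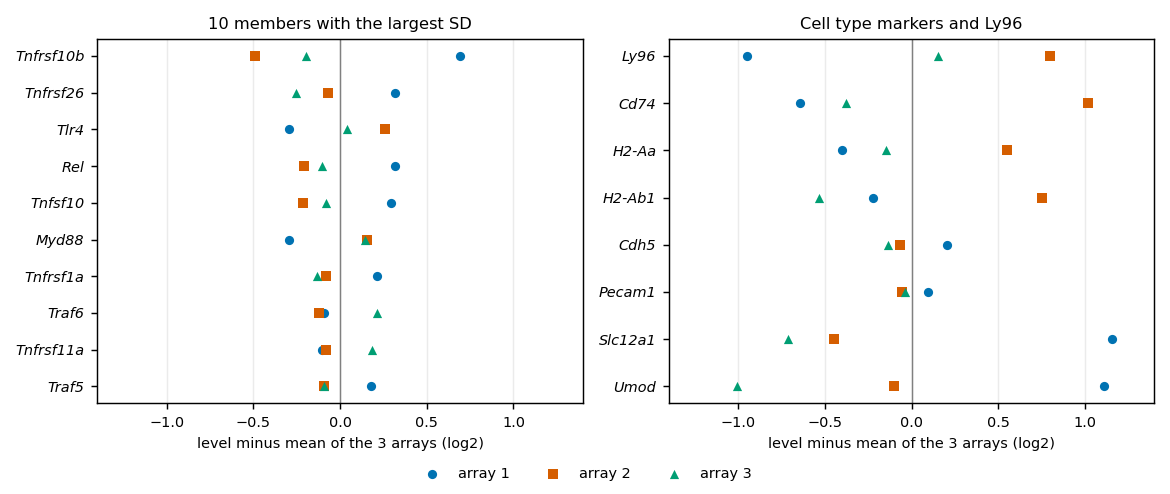
Level in each of 3 arrays minus the mean of the 3 (x axis, log2 units) for the 10 members with the largest SD (left) and for Ly96 and markers of antigen presentation, endothelium and thick ascending limb (right). Tnfrsf10b, Umod and Slc12a1 are highest in array 1, and Tlr4, Ly96, Cd74, H2-Aa and H2-Ab1 in array 2.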

How the data were processed

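RNA of each sorted sample went through 1 round of WT-Ovation Pico amplification and was hybridised to an Affymetrix Mouse Gene 1.0 ST array. The authors deposited a log2 level for every probe set, made with Affymetrix Expression Console per the labels. Their text names RMA, which corrects background, normalizes between arrays and summarises probes by median polish. The log2 scale was read from the range (3.55 to 14.4), and it was assumed that the raw level of the study's filter is its antilog. A genome build was not stated, and none was needed. The platform annotation named 1 gene for 21789 of 35557 probe sets, and names were updated to RefSeq symbols (99.6% matched). Each gene was represented by its probe set with the highest mean. limma 3.58.1 (R 4.3.3) was fitted with an intercept only to the log2 level minus the limit, two-sided, at an adjusted p of 0.05. The prior variance came from genes with 3 different values. The fit was tested on simulated data in which no gene had equal values between arrays. That test therefore does not cover the genes with equal values in the real data. The background limit rests on 1242 probe sets and was treated as fixed. Its 34.8% share at 100 units in all arrays shows how little that filter asks. The members, lists and tests were chosen with earlier results of these data known. The rule for naming took a list of core members and the 10 members with the largest SD, and the other members and list genes were named to account for the counts. The authors describe samples as independent, and the labels do not say whether pools shared animals. Alternatives changed the limit, the prior, the probe set rule, the normalization, a filter on dim probe sets (mean log2 of 5), the use of unnamed probe sets and the replicates. Scanner files and scan dates were not used here. Python 3.11.15, numpy 2.4.6, pandas 2.3.3 and matplotlib 3.10.9 were used.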

Additional observations from a re-analysis of the deposited data

How the results depend on the processing

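Normalizing the deposited values again by quantiles or by the array median, averaging the probe sets of a gene and testing only genes with a mean log2 level of at least 5 changed no call of the 66 genes against either limit. The averaging and the filter left every member's level unchanged, since each had 1 probe set and a mean of at least 5.80. Those alternatives could change a call only through the prior variance and the adjustment over all genes. No paired analysis was possible because there is 1 group. Leaving out 1 array gave 59 members above 100 units each time and 5 below it, 33 to 36 above the background limit and 19 to 20 below it, 60 to 61 at 100 units in all arrays and 41 at the background limit in all arrays. Of all 19938 genes the same fits called 16470 to 16505 above 100 units and 2364 to 2377 below it. Against the background limit they called 9752 to 9810 above and 7422 to 7454 below. The members with a range over 0.25 log2 units numbered 3 to 11, with 3 without array 1, an alternative added after seeing the data. The prior from all genes gave 40 above the background limit and 24 below it, with Ltb, Tnfaip3, Tnfrsf19 and Tnfrsf1b gained above, Lta, Relb, Tnfrsf21 and Tnfrsf25 gained below and Tnfrsf10b lost, and keeping unnamed probe sets gave 34 and 19, losing Tlr9, Tnfrsf9, Tnfrsf11b and Tnfrsf13b against the background limit and Tnfsf9 against 100 units. Over all 19938 genes the prior from all genes gave 10510 above the background limit and 8229 below it. With unnamed probe sets 14217 of 33706 rows were above and 13208 below.

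The place of the limit decided most. At 50 units 0 members were called below and at 200 units 12, with 5 below at 100. Of all 19938 genes 834 were called below 50 units, 5898 below 200 and 2390 below 100. At the 99th percentile of the sensory receptor probe sets 19 members were above and 40 below, against 5832 and 12033 of 19938 genes. At the 90th 11 members were below, against 5745 of 19938 genes. Apart from Tlr13, sides changed only by the shift of the limit itself. The distance of Tlr13 from 100 units was -0.025 with all arrays and 0.025 without array 1, and it could not be told from that limit either time. Distances from the limit of 50 units were 0.42 for Tlr1, 0.98 for Tlr13, 0.16 for Tlr7, 0.47 for Tlr8, 0.52 for Tnfsf8 and 0.77 for Tnfsf9. At 200 units they were -0.18 for Nfkbie, -0.12 for Tlr12, -0.33 for Tnf, -0.011 for Tnfrsf17, -0.20 for Tnfrsf8, -0.45 for Tnfsf13b, -0.54 for Tnfsf14, -0.53 for Tnfsf18, -0.89 for Tnfsf4, -0.16 for Traf1 and -0.26 for Traf5. At the 90th percentile they were 0.053 for Cd14, 0.25 for Lta, 0.23 for Relb, 0.074 for Tlr6, 0.14 for Tnfrsf11b, 0.025 for Tnfrsf17, 0.21 for Tnfrsf21, 0.22 for Tnfrsf25 and 0.24 for Tnfsf15. At the 99th percentile they were -0.36 for Ikbkg, -0.27 for Irak2, -0.64 for Ltb, -0.35 for Nfkb2, -0.14 for Nfkbib, -0.23 for Nfkbiz, -0.42 for Ticam1, -0.57 for Tlr9, -0.73 for Tnfaip3, -0.61 for Tnfrsf13b, -0.41 for Tnfrsf13c, -0.49 for Tnfrsf14, -0.43 for Tnfrsf18, -0.69 for Tnfrsf19, -0.65 for Tnfrsf1b, -0.39 for Tnfrsf4 and -0.58 for Tnfrsf9. Signal over background per probe could not be examined, and 3 arrays limit the precision. Background correction and scan date as a block were not run.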
